A study of Rattus norvegicus with 6 samples.

Results

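Members of the S100 family, small calcium-binding proteins, were compared between Schwann cell precursors (SCPs) and repair Schwann cells (RSCs) of the rat. The members were 10 genes chosen by name, S100b, S100a1, S100a4, S100a6, S100a8, S100a9, S100a10, S100a11, S100a13 and S100a16, out of 29468 gene symbols in the tables. All 10 were listed in every table, and 9 of them averaged 1 FPKM or more over the 6 samples, FPKM being fragments divided by transcript length and library size, the exception being S100a8. The list was drawn up with the levels in both groups known, so the differences between SCPs and RSCs are given for these 10 genes as a description, without a test.

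Both groups came from LEWIS rats, labelled wild type, and held 3 samples each. The methods state that cells for grafting came from LEWIS rats carrying a red fluorescent transgene and describe a single preparation for grafting and for RNA, so whether the RNA samples carried it is not settled here. The SCPs were untreated cells dissociated with collagenase and trypsin from sciatic nerve and brachial plexus of embryos at embryonic day 14. The RSCs were dissociated with the same enzymes, but with more collagenase and for longer, from the distal stump of a cut sciatic nerve of 10 week old rats, 1 week after the cut. Per the methods, a short stay in uncoated flasks, to which fibroblasts and macrophages stick, was used to deplete these cells. The floating cells were kept, and no sort by a marker is named. The paper assessed purity by immunolabelling of cultured cells, and reports Sox10 in most cells of both types. Age, injury, tissue and dissociation changed together between the groups, so that their effects cannot be told apart. In such bulk RNA a larger number of cells of a type and more RNA per cell cannot be told apart either. The 3 samples of a group were separate cell preparations, and the number of animals in each is not given in the sources used here.

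An S100 protein holds a pair of calcium-binding loops called EF-hands and usually works as a dimer. On binding calcium most of them expose a surface that grips target proteins such as annexins and cytoskeletal proteins. Several are released from cells and act on the receptors RAGE (Ager) and Toll-like receptor 4 (Tlr4). S100b is the classical marker protein of Schwann cells and astrocytes, S100a4 and S100a6 are abundant in fibroblasts and other motile cells, and S100a8 with S100a9 forms calprotectin, the major cytosolic protein of neutrophils.

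The samples were checked first. Sox10, the transcription factor that defines the Schwann cell lineage, was present in all samples, at 175 to 181 FPKM in SCPs and 143 to 149 FPKM in RSCs. A 0 in these tables can be a failed estimate. Genes of other cells were present in both groups. The summed level of 16 monocyte and macrophage markers was 24.9 to 74.5 FPKM in SCPs and 3091 to 3908 FPKM in RSCs, and that of 10 fibroblast markers was 849 to 1193 FPKM and 5441 to 8130.5 FPKM. Erythroid markers summed to 16731 to 74799 FPKM in SCPs and to at most 2.17 FPKM in RSCs. Low FPKM values fell on steps that give the worth of 1 fragment, which implied about 5520000 to 6230000 fragments in SCPs and 4790000 to 5260000 in RSCs. From these steps the number of fragments behind a value was estimated, approximately for transcripts as short as those of the S100 genes.

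The S100 genes as a group were far more abundant in RSCs, and a different set of them dominated. The summed level of the 10 genes was 488, 540.0 and 672 FPKM in SCP replicates 1, 2 and 3. In RSC replicates 1, 2 and 3 it was 5849.6, 5992 and 6373 FPKM. As a share of the FPKM of all named transcripts, this was 0.0907% to 0.109% in SCPs and 1.18% to 1.21% in RSCs. S100a10, S100a11 and S100a16 together made up 91.3% to 97.9% of the sum in SCPs and 25.7% to 29.5% in RSCs. S100a4 and S100a6 together made up 0.723% to 2.76% in SCPs and 56.3% to 57.5% in RSCs. S100b added 0.658% to 2.88% in SCPs and 13.1% to 15.8% in RSCs.

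**Figure D1:**
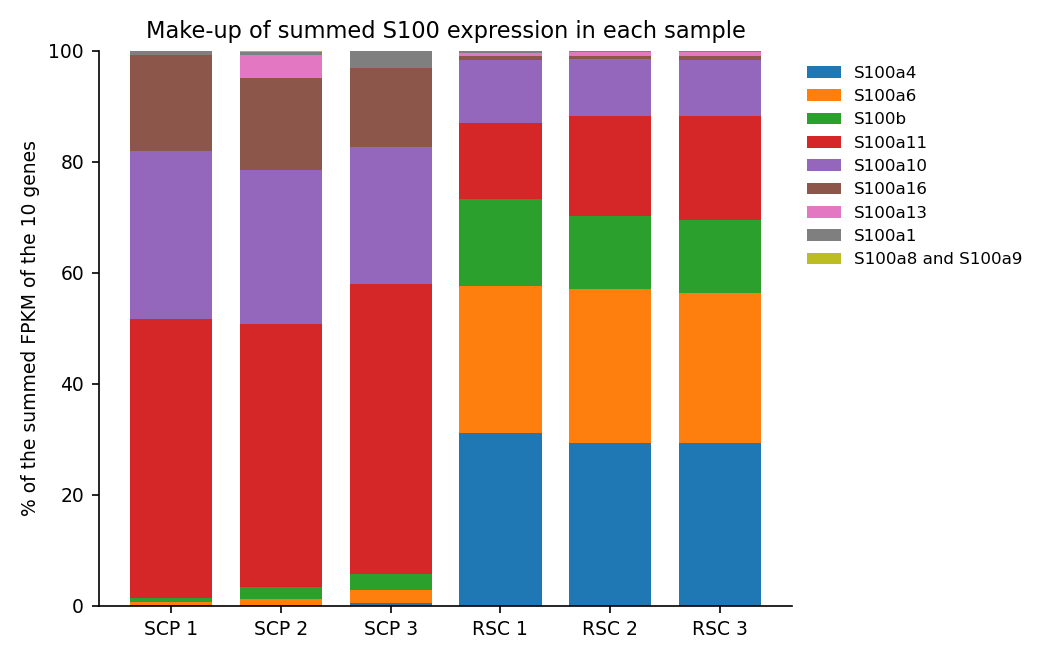
Share of each gene (y axis, % of the summed FPKM of the 10 S100 genes) in each of the 3 SCP and 3 RSC samples (x axis), as stacked bars. S100a11, S100a10 and S100a16 fill over 91% of every SCP bar, and S100a4 and S100a6 fill over 56% of every RSC bar.

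In 6 of the 10 genes every RSC value lay above every SCP value, namely S100b, S100a4, S100a6, S100a10, S100a11 and S100a13. In 1, S100a16, every RSC value lay below every SCP value, and in 3, S100a1, S100a8 and S100a9, the groups overlapped. Among all 13003 genes that averaged 1 FPKM or more, the groups lay apart with RSCs higher in 24.9% and with SCPs higher in 33.7%. A difference over 2 in mean log2(FPKM + 1), RSC minus SCP, was found in 5 of the 10 genes, against 8.83% of all tested genes. Since the genes were chosen on this comparison, nothing is read from these shares. The median difference was 2.06 over the 9 S100 genes that passed the filter and -0.17 over all tested genes, and scaling by median ratios moved the latter to 0.02. Adding 1 before the logarithm understates the differences of low genes.

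**Figure D2:**
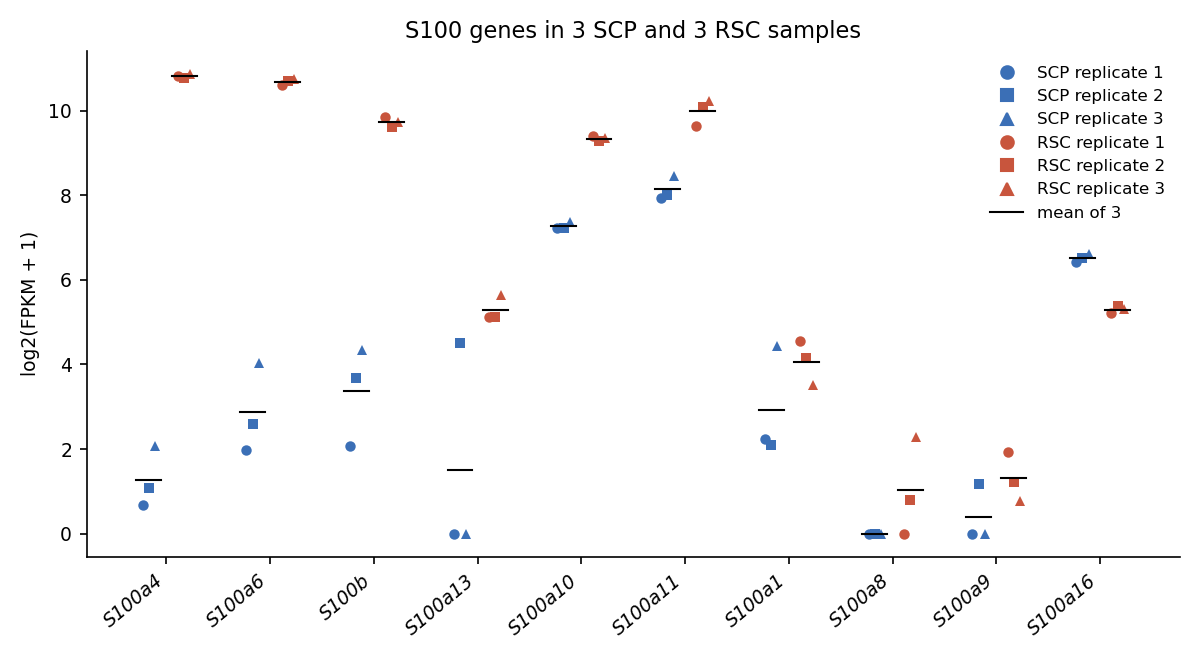
log2(FPKM + 1) (y axis) of the 10 S100 genes (x axis, ordered by the difference) in each sample, with symbols for replicates, blue for SCPs and red for RSCs, and a line at the mean of 3. The RSC points of S100a4, S100a6 and S100b lie far above their SCP points, S100a16 alone lies lower in RSCs without overlap, and S100a1, S100a8 and S100a9 overlap.

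S100a4 showed the largest difference. The protein, also called metastasin or fibroblast-specific protein, binds the heavy chain of non-muscle myosin, encoded by Myh9. Its gene lies at chr2:189997278-189999587 on rn6. It was listed at 0.601, 1.11 and 3.19 FPKM in SCP replicates 1, 2 and 3 and at 1815, 1753 and 1870.2 FPKM in RSC replicates 1, 2 and 3. The means were 1.63 ± 1.37 FPKM (SD, n = 3) and 1813 ± 58.5 FPKM (SD, n = 3), a ratio of 1111, and the log2 difference was 9.55. The SCP values rested on about 1, 2 and 5 fragments, so the ratio is loosely bounded, with a 95% exact Poisson interval of 564 to 2575 from these 8 fragments that covers counting error only. Ranked by mean among 20494 symbols with a value above 0 in any sample, S100a4 stood at place 11168 in SCPs and at place 20 in RSCs. The SCP level was that of a gene barely detected, while the RSC samples differed by a coefficient of variation of 3.23%.

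S100a6 gave a similar picture. It encodes calcyclin, a partner of the ubiquitin ligase adaptor Cacybp and of annexin A11, and lies next to S100a4 at chr2:190007038-190008512. Its levels were 2.93, 5.03 and 15.4 FPKM in SCP replicates 1, 2 and 3 and 1549.6, 1669 and 1716 FPKM in RSC replicates 1, 2 and 3. The means of 7.78 ± 6.66 FPKM (SD, n = 3) and 1645 ± 85.9 FPKM (SD, n = 3) gave a ratio of 212 (149 to 311 from the counting error of about 31 SCP fragments). It stood at place 6790 in SCPs and at place 27 in RSCs. Of its 2 transcripts, the one of 498 bases held 24.6% to 50.6% of the FPKM in SCPs and was listed at 0 in all RSCs, where the 402-base transcript held everything.

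S100b, at chr20:13130633-13142856 and so apart from the other members, followed the same pattern. Its levels were 3.21, 11.7 and 19.3 FPKM in SCP replicates 1, 2 and 3, behind which stood about 24, 94 and 137 fragments. In RSC replicates 1, 2 and 3 they were 924, 782 and 843 FPKM. The value of RSC replicate 3 lay above the interval that Cufflinks gave for it, 727 to 783 FPKM. Cufflinks flagged the values of RSC replicates 2 and 3 as low data. The means of 11.4 ± 8.06 FPKM (SD, n = 3) and 849.9 ± 71.5 FPKM (SD, n = 3) differed 74.4-fold (65.8 to 84.4 from counting error), or by 6.37 on the log2 scale. The lowest and the highest SCP samples were far apart for the same gene, with a coefficient of variation of 70.6%, whereas it was 8.41% in RSCs. Sox10, by comparison, fell by 0.30 from SCPs to RSCs on the log2(FPKM + 1) scale (SE 0.06, adjusted p = 0.00767). After scaling by median ratios the Sox10 difference was -0.08 (adjusted p = 0.329), and without RSC replicate 2 it was -0.29 and no longer passed at 0.01. It did not pass without the variance trend either (adjusted p = 0.0685). Of the lineage markers, 9 of 13 tested were higher in RSCs and 1 was lower at an unadjusted limma p under 0.01, against 18.1% and 22.4% of all tested genes. One transcript of 1484 bases carried all of the S100b signal, and the other, of 1486 bases, was listed at 0 in all samples.

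The sequence before the gene start is shown for the members with the largest differences in each direction and for S100a11, the most abundant in SCPs, as far as RefSeq promoters (GRCr8 build) were given. Of the 10 members 7 were matched, while S100a1, S100a8 and S100a10 were not. Capitals mark TATAAA, the TATA box that fixes the start of transcription in some promoters, and TGANTCA, the AP-1 motif. They also mark ACAANG, a loose form of the core of SOX motifs that allows any base at N. All were searched on both strands. The sequences end at the base before the gene start, except that of S100b, of which the 172 bases before a more distal start are shown. They lie at chr2:178388279-178388528 (plus strand) for S100a4, at chr20:12381160-12381331 (minus strand) for S100b, at chr2:181874882-181875131 (plus strand) for S100a11 and at chr2:178313736-178313985 (plus strand) for S100a16. S100a6, whose window lies within its annotated gene, is not shown.
S100a4: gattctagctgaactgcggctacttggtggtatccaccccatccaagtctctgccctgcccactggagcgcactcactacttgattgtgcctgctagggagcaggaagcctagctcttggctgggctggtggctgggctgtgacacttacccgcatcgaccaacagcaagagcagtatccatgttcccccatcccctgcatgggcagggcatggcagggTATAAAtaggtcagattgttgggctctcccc
S100b: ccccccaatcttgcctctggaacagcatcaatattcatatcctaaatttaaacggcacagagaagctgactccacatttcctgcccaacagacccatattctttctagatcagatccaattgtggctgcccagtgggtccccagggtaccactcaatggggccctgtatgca
S100a11: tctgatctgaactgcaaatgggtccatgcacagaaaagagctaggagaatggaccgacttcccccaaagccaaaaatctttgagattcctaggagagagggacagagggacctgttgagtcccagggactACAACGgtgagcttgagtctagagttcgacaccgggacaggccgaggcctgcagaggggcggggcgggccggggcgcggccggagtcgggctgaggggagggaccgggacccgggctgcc
S100a16: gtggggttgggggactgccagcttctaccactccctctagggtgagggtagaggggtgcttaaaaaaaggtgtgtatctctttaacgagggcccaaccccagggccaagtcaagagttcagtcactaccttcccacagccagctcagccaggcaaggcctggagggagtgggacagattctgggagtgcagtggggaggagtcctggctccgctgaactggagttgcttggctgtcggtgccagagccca

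In the 250 bases before the start, TATAAA occurred in 2 of the 7 members, S100a4 and S100a9, beginning 31 and 42 bases before the start. It occurred in 12.9% of all 33469 RefSeq promoters. ACAANG occurred in 2 of the 7, S100a6 and S100a11, and in 36.9% of all promoters. The S100a6 window lies within its annotated gene, so that match is not upstream of the gene. The S100b sequence shown leaves out 78 bases of its window. TGANTCA was in none of the 7 windows and in 6.34% of all. The S100b and S100a16 windows, from a gene that was higher and a gene that was lower in RSCs, held none of the 3 motifs. A match here is a run of letters and not a binding site.

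S100a10 and S100a11, neighbours at chr2:193892589-193901236 and chr2:193863185-193868646, were the most abundant members in SCPs and differed less between the groups. S100a10, whose EF-hands no longer bind calcium and which pairs with annexin A2 to carry plasminogen to the cell surface, stood at 148, 149.6 and 165 FPKM in SCP replicates 1, 2 and 3. In RSC replicates 1, 2 and 3 it stood at 669, 616 and 651 FPKM. The means of 154 ± 9.68 FPKM and 645 ± 26.6 FPKM (SD, n = 3 each) differed 4.18-fold, and both groups were tight. In RSC replicates 2 and 3, but in no other sample, Cufflinks placed further FPKM at this locus in a transcript without a gene name. The S100a10 values in SCP replicates 1 and 2 lay above the interval that Cufflinks itself gave for them, 87.2 to 113 and 90.2 to 117 FPKM.

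S100a11, also called calgizzarin, binds annexin A1 and acts in membrane repair. Its levels were 245, 256 and 352 FPKM in SCP replicates 1, 2 and 3 and 797, 1079 and 1191 FPKM in RSC replicates 1, 2 and 3, a ratio of means of 3.59. The RSC spread (SD 203 FPKM) was the widest among the members in FPKM. Cufflinks divided its fragments between transcripts of 555 and 297 bases. The short one, which has little room for fragments, was at 0 in RSC replicate 1, where the gene was lowest, and at 388 and 535 FPKM in RSC replicates 2 and 3. In estimated fragments the RSC samples were close, at about 1355, 1488 and 1412. SCP replicates 1, 2 and 3 held about 396, 566 and 475 fragments.

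S100a16 was the one member with lower levels in RSCs. It is one of the most widely expressed members, and lies at chr2:189923140-189928850. Its levels were 84.8, 90.3 and 96.0 FPKM in SCP replicates 1, 2 and 3 and 36.1, 40.6 and 38.4 FPKM in RSC replicates 1, 2 and 3. The means of 90.4 ± 5.55 FPKM and 38.4 ± 2.22 FPKM (SD, n = 3 each) made SCPs 2.35-fold higher. On the log2 scale the difference was -1.21, and -1.002 after scaling by median ratios. The transcripts that carried the level differed as well. The 1004-base transcript held 35.0% to 47.4% in SCPs and was listed at 0 in all RSCs, and the 1013-base transcript was at 0 in all SCPs and held 50.2% to 69.2% in RSCs. The remainder in both groups belonged to a transcript of 1087 bases.

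S100a1, a regulator of calcium handling in heart and skeletal muscle, gave overlapping levels. They were 3.69, 3.27 and 20.8 FPKM in SCP replicates 1, 2 and 3 and 22.4, 16.7 and 10.4 FPKM in RSC replicates 1, 2 and 3. SCP replicate 3 thus stood among the RSCs, and without it the groups would lie apart. The estimated fragments did not show this pattern, with about 20, 19 and 20 in SCPs and 21, 19 and 19 in RSCs. In the samples with the higher FPKM, Cufflinks had given some of the fragments to a 285-base transcript. It made up 66.6% to 89.8% of the FPKM in SCP replicate 3 and the RSCs and was at 0 in SCP replicates 1 and 2. The 1131-base transcript alone was at 2.12 to 3.69 FPKM in SCPs and 2.54 to 3.46 FPKM in RSCs. The gene lies at chr2:189900505-189905878.

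**Figure D3:**
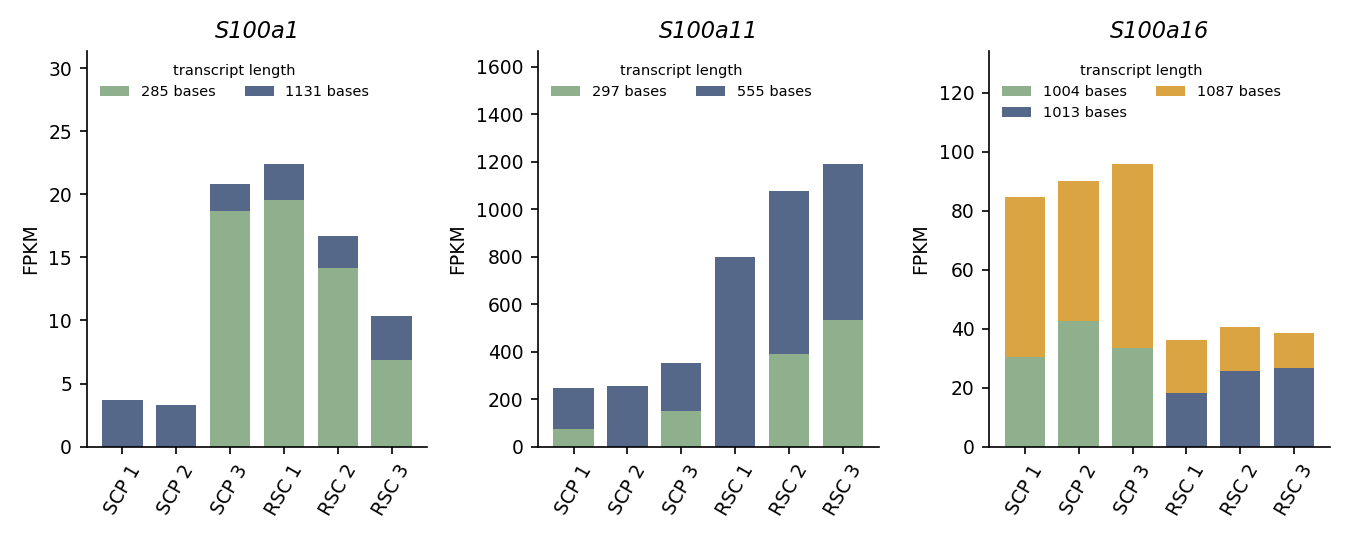
FPKM (y axis of each panel) of the transcripts of S100a1, S100a11 and S100a16 in the 6 samples (x axis), stacked and coloured by transcript length in bases. The 285-base S100a1 transcript is absent from SCP replicates 1 and 2, the 297-base S100a11 transcript from SCP replicate 2 and RSC replicate 1, and S100a16 is made of 1004 and 1087 bases in SCPs and of 1013 and 1087 bases in RSCs.

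S100a13, which takes part in the release of FGF1 from cells, was listed at 0, 21.7 and 0 FPKM in SCP replicates 1, 2 and 3. In RSC replicates 1, 2 and 3 it was at 33.7, 33.7 and 48.6 FPKM, the last above Cufflinks' interval of 23.3 to 43.7 FPKM. Its only named transcript, of 484 bases at chr2:189906022-189912516, had about 38 fragments in SCP replicate 2, and 3 fragments in replicates 1 and 3 would have given 1.82 and 1.91 FPKM. The log2 difference was 3.79 with the zeros and 0.78 without them, a ratio of 1.78 of the RSC mean to SCP replicate 2. Its size therefore rests on whether these zeros are levels or failed estimates.

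S100a8 and S100a9 were near the limit of detection in both groups. S100a8, at chr2:190073242-190074333, was listed at 0 in all SCPs and at 0, 0.745 and 3.89 FPKM in RSC replicates 1, 2 and 3, or about 0, 1 and 3 fragments. A listing of 0 allows up to 3 fragments, which for its 357-base transcript is 3.07 to 3.46 FPKM in SCPs, so no difference was detectable at this depth. S100a9, at chr2:190097436-190100208, was at 0, 1.26 and 0 FPKM in SCP replicates 1, 2 and 3 and at 2.84, 1.33 and 0.707 FPKM in RSC replicates 1, 2 and 3, with about 7 fragments in all RSCs together. The 17 neutrophil markers summed to 3.53 to 8.23 FPKM in SCPs and 27.7 to 45.6 FPKM in RSCs, and 4 of the 5 tested were higher in RSCs, against 18.1% of all tested genes. Most of the list was too low to be tested. A marker at 0 in all SCPs passes the filter only through its RSC values, so nothing is read from this share. Retnlg, a resistin-like protein of neutrophils, was listed at 0 in all SCPs and at 9.15, 24.9 and 19.7 FPKM in RSC replicates 1, 2 and 3 (adjusted p = 0.000411). Lcn2 (lipocalin), Csf3r (the G-CSF receptor) and Mmp9 (a gelatinase) rose by 2.36, 1.63 and 1.17 on the log2(FPKM + 1) scale (SE 0.24, 0.22 and 0.29, adjusted p = 0.000629, 0.00198 and 0.0177). The call of Mmp9 was lost with a pseudocount of 0.1, with quantile normalization and without any 1 sample except SCP replicate 3 (log2 differences 0.99 to 1.30). Mpo (myeloperoxidase) was listed at 0.620, 0.362 and 2.12 FPKM in SCPs and at 0 in all RSCs, and Cxcr2, a chemokine receptor, at 0 in all SCPs and at no more than 0.186 FPKM in RSCs. The part of these cells in the calprotectin values was not tested.

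Within SCPs, the order of levels was S100a11, S100a10, S100a16, S100b, S100a1, S100a6 and S100a4, leaving out genes with a 0. S100a11, S100a10 and S100a16 each differed from the next by more than the larger SD of the pair. From S100b downward, through S100a1 and S100a6 to S100a4, no gene differed from the next beyond that spread. Within RSCs, the order was S100a4, S100a6, S100a11, S100b, S100a10, S100a13, S100a16, S100a1 and S100a9. Here S100a11 and S100b were not separated beyond their spread, nor were S100a13 and S100a16, and the other neighbours were.

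SCP replicate 3 had the highest SCP level in 7 of the 10 genes, S100b, S100a1, S100a4, S100a6, S100a10, S100a11 and S100a16. Over all tested genes, 28.4% were highest in this replicate. For S100a1 and S100a11 the estimated fragments, not scaled by library size, did not show it. They were about 20, 19 and 20 for S100a1 and 396, 566 and 475 for S100a11 in SCP replicates 1, 2 and 3. The markers of other cells were not even across the SCP samples. In SCP replicates 1, 2 and 3, skeletal muscle markers summed to 84.5, 135 and 302 FPKM, cartilage markers to 88.0, 144 and 210.2 FPKM, monocyte and macrophage markers to 24.9, 57.3 and 74.5 FPKM, and fibroblast markers to 849, 1081 and 1193 FPKM. The Schwann lineage markers themselves summed to 692, 712 and 855 FPKM in SCP replicates 1, 2 and 3. Melanocyte markers summed to 17.3, 28.1 and 42.0 FPKM. Several other lists did not rise in this order. Endothelial and mural markers summed to 95.3, 281 and 165 FPKM, and erythroid markers to 23768, 16731 and 74799 FPKM. Neuron markers summed to 66.4, 38.4 and 47.4 FPKM, and perineurial markers to 37.6, 31.1 and 27.8 FPKM. Without SCP replicate 3, the log2 differences were 6.86 for S100b, 9.95 for S100a4 and 8.40 for S100a6. The part of these cells in the SCP levels was not tested.

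Markers of several non-Schwann cells also moved with the RSC levels, although the methods describe the removal of adhesive fibroblasts and macrophages. At p under 0.01, all 15 tested monocyte and macrophage markers were higher in RSCs, against 18.1% of all tested genes. Macrophage markers such as Cd14, at a mean of 0.992 FPKM in SCPs, passed the filter only through their RSC values. Nothing is therefore read from the macrophage share. Of 10 tested fibroblast markers, 8 were higher and 1 was lower, against 18.1% and 22.4% of all tested genes. Cybb, also on the macrophage list, was too low to be tested and went the other way. It was at 0.341, 1.70 and 1.92 FPKM in SCPs and listed at 0 in all RSCs. Of 5 tested perineurial markers, 3 were higher in RSCs and 1 was lower. That list summed to 27.8 to 37.6 FPKM in SCPs and 91.9 to 151 FPKM in RSCs. Several lists did not follow. Of 9 tested endothelial and mural markers, 1 was higher in RSCs. Of 9 tested skeletal muscle markers, 1 was higher and 6 were lower, and all 6 tested erythroid markers were lower. Csf1r, the macrophage growth factor receptor, was at 1.48 to 3.83 FPKM in SCPs and 54.4 to 83.8 FPKM in RSCs, and Col1a1, a fibrillar collagen gene, was at 79.99 to 226 FPKM and 1614 to 2076 FPKM. Pdgfra, a receptor of fibroblasts, did not pass the test (log2 difference 0.26, SE 0.12, adjusted p = 0.130), but did after scaling by median ratios (0.47, adjusted p = 0.0222). Only 2 of 6 adipocyte markers could be tested, and Adipoq, which defines that cell type, was at 0.148 FPKM in RSC replicate 2 and listed at 0 elsewhere. Their part in the levels of S100a4, S100a6 and the other members was not tested.

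The genes with the most similar profile over the 6 samples, by Euclidean distance of centred log2(FPKM + 1) values, were Mgp, Sbsn, Thbs2, Gpnmb and Mpeg1 for S100b (distances 0.764 to 1.06). For S100a4 they were Igfbp7, Lyz2, Lgals3, Rn18s and Apod (distances 1.03 to 1.97). Mgp encodes matrix Gla protein, and stood at 4.78, 14.7 and 15.7 FPKM in SCP replicates 1, 2 and 3 and at 771, 1014 and 1115 FPKM in RSC replicates 1, 2 and 3. Lyz2, the lysozyme of macrophages, stood at 1.99, 3.90 and 6.04 FPKM in SCPs and at 1468, 1667 and 1770.5 FPKM in RSCs. Igfbp7 and Rn18s were listed at 0 in all SCPs. With differences between the groups this large, the distance mostly follows the size of that difference. Variation shared within a group is therefore not shown by it.

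Genes of the proteins to which S100 dimers bind were tested next. At an unadjusted limma p under 0.01, 18 of 31 tested receptors and binding partners rose in RSCs and 2 fell. Of all 13003 tested genes, 18.1% rose and 22.4% fell by the same rule (2351 and 2917 genes, or 2773 and 2174 after scaling by median ratios). The median difference of the list was 0.79. Of the 43 genes listed, 42 were in the tables. Genes such as Ager, Tlr4 and Ncf1 passed the filter only through their RSC values. Ryr1, at 1.30 to 1.73 FPKM in SCPs and 0.058 to 0.154 FPKM in RSCs, stayed below the filter. Cybb, listed at 0 in all RSCs, stayed below it as well.

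All 5 annexin genes of the list rose. Anxa1 was at 3.35, 8.83 and 7.46 FPKM in SCP replicates 1, 2 and 3 and at 403, 464 and 589 FPKM in RSC replicates 1, 2 and 3. It had the largest difference of the list, 6.07 on the log2(FPKM + 1) scale (SE 0.33, adjusted p = 7.01e-05). The S100a11 level was 29.0 to 73.3 times that of Anxa1 in SCPs and 1.98 to 2.33 times in RSCs. Anxa2, the partner of S100a10, was at 69.7, 95.2 and 91.2 FPKM in SCPs and at 669, 643 and 717 FPKM in RSCs (log2 difference 2.98, SE 0.13, adjusted p = 3.84e-05). From named transcripts, the ratio of S100a10 to Anxa2 was 1.57 to 2.12 in SCPs and 0.908 to 1.00 in RSCs. By this count, the FPKM of both subunits were nearly equal in RSCs. With the transcript without a gene name added, S100a10 was at 669, 701 and 855 FPKM in RSC replicates 1, 2 and 3. Anxa11, a partner of S100a6, rose by 2.58 (SE 0.15, adjusted p = 8.34e-05).

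Other partners showed a range of changes. Ezr, which encodes the membrane-cytoskeleton linker ezrin, rose by 3.45 (SE 0.44, adjusted p = 0.00153). Ncf1 (p47phox), which switches on the oxidative burst of phagocytes, had 0 in every SCP table and 50.6 to 57.4 FPKM in RSCs (adjusted p = 1.14e-05). Capza2, an actin capping protein, had the smallest rise that passed, 0.53 (SE 0.09, adjusted p = 0.00399). Ppp5c, a protein phosphatase, fell by 0.86 (SE 0.09, adjusted p = 0.000853). Cacybp did not pass the test (log2 difference -0.15, SE 0.25, adjusted p = 0.655), and the S100a6 level was 0.0592 to 0.470 times that of Cacybp in SCPs and 44.1 to 68.0 times in RSCs. Fgf1, the cargo of S100a13, was too low to be tested, at 0.0413 to 0.368 FPKM in SCPs and 0.693 to 1.33 FPKM in RSCs.

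**Figure D4:**
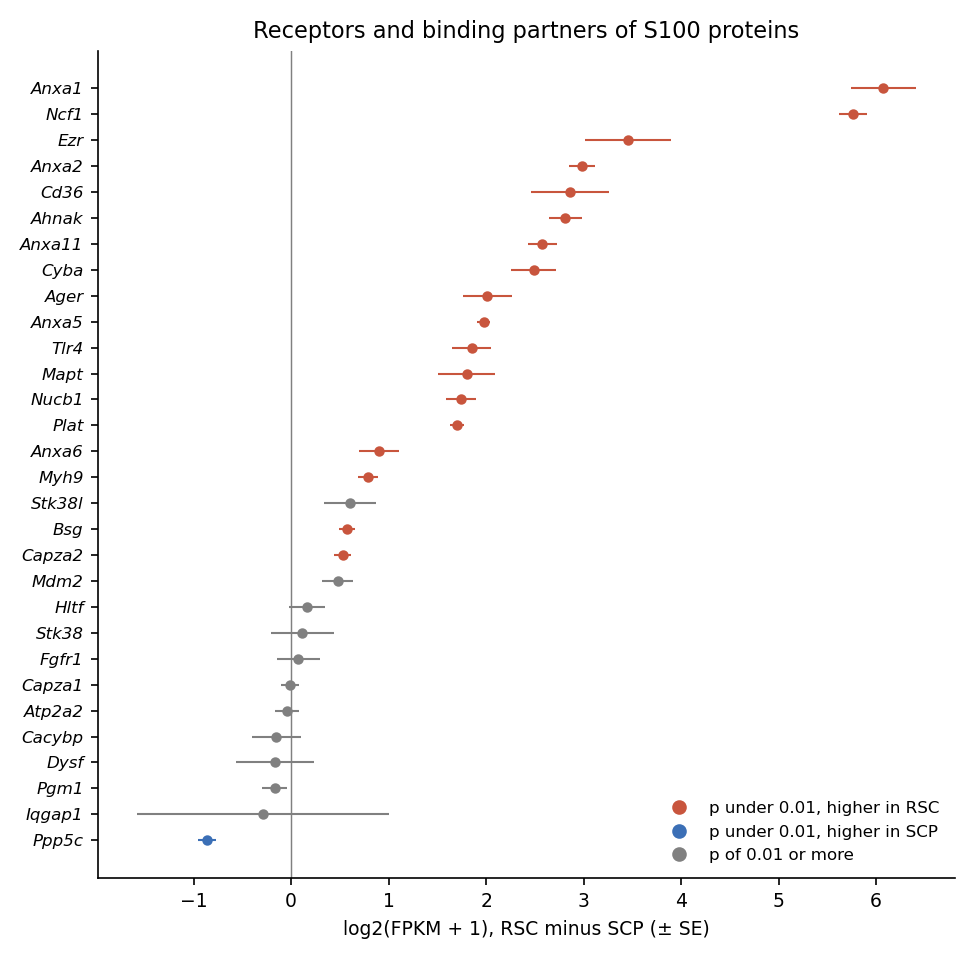
Difference in log2(FPKM + 1), RSC minus SCP (x axis, with SE bars from limma, 3 samples per group), for 30 of the 31 tested receptors and binding partners of S100 proteins (y axis). Red points passed p under 0.01 with RSCs higher (18 genes), the blue point with SCPs higher (1 gene), and grey points did not pass (11 genes).

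Of the cell surface receptors, Ager was listed at 0 in all SCPs and was at 3.75, 3.40 and 2.15 FPKM in RSC replicates 1, 2 and 3 (adjusted p = 0.00139). Tlr4 was at 0.102 to 0.173 FPKM in SCPs and 2.93 to 3.47 FPKM in RSCs, a log2 difference of 1.85 (SE 0.20, adjusted p = 0.000881). Both receptors stayed below 4 FPKM and passed the filter only through their RSC values. A further list held genes of RAGE and TLR4 signalling, including a co-receptor, Cd14, and a ligand, Hmgb1. Its counts are thus not of downstream genes alone. Of its 22 tested genes, 10 rose in RSCs (against 18.1% of all tested genes), 2 fell (against 22.4%) and 10 did not pass. The median difference was 0.71 (all tested genes -0.17). Cd14 and Relb passed the filter only through their RSC values. Nfkbia, the inhibitor of NF-kB that NF-kB itself induces, rose by 4.04 (SE 0.19, adjusted p = 4.58e-05). Cd14, the TLR4 co-receptor and itself one of the macrophage markers, rose by 3.97 (SE 0.21, adjusted p = 6.27e-05). Relb, an NF-kB subunit, was listed at 0 in SCPs and was at 16.1 to 21.3 FPKM in RSCs. Mapk14, the p38 kinase, had the smallest rise, 0.57 (SE 0.14, adjusted p = 0.0166). Hmgb1, another RAGE ligand, fell by 0.68 (SE 0.12, adjusted p = 0.0059), and Chuk, an NF-kB activating kinase, fell by 0.52 (SE 0.13, adjusted p = 0.0217). The call of Chuk was lost without any 1 of the 6 samples (log2 differences -0.58 to -0.40), and that of Mapk14 without any 1 except SCP replicate 1 (0.46 to 0.59) and without the variance trend (adjusted p = 0.0285).

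Among 47 tested EF-hand genes outside the S100 family, 19 rose in RSCs, against 18.1% of all tested genes, and 18 did not pass. The 10 that fell were a share near the 22.4% of all tested genes, and the median difference was 0.36. Aif1, a macrophage protein also on that marker list, rose by 5.09 (SE 0.46, adjusted p = 0.000397). Efhd1, a mitochondrial EF-hand protein, rose by 3.77 (SE 0.20, adjusted p = 6.24e-05), and Lcp1, the leukocyte plastin, by 3.66 (SE 0.31, adjusted p = 0.000341). Calb2, the neuronal buffer calretinin, was at 12.2 to 16.5 FPKM in SCPs and listed at 0 in all RSCs (adjusted p = 5.70e-05). Pls3, another plastin, fell by 2.35 (SE 0.13, adjusted p = 7.07e-05) and Capn6, a calpain without protease activity, by 2.33 (SE 0.20, adjusted p = 0.000335). Aif1 and Lcp1 are genes of leukocytes, and the part of these cells was not tested.

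The remaining S100 family was nearly silent. Of 19 further family genes, 14 were in the tables, 7 of these were at 0 in all samples, and 1, S100a3, could be tested. It was at 0, 1.12 and 0.602 FPKM in SCP replicates 1, 2 and 3 and at 1.80, 3.66 and 2.98 FPKM in RSC replicates 1, 2 and 3, and did not pass at 0.01 (log2 difference 1.31, SE 0.37, adjusted p = 0.0297). Without SCP replicate 2 it passed (log2 difference 1.56, adjusted p = 0.0273). The 4 named genes that lie between members on chromosome 2 were all S100 genes as well, S100a3, S100a5, S100a7a and S100a14, so S100a3 was also the only one tested there.

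Along chromosome 2 the members formed 2 runs. In the larger one 7 members lay within 199.7 kb, and neighbours differed widely. S100a16, lower in RSCs, had S100a13 on one side and the steeply higher S100a4 and S100a6 farther on. Some genes before the run are given as well. They were named after their values were seen, so no contrast with the run is read from them. Chtop, whose end lies 0.425 kb from S100a1, fell by 1.35 on the log2(FPKM + 1) scale (SE 0.13, adjusted p = 0.000503), and Ilf2 fell by 1.77 (SE 0.09, adjusted p = 6.08e-05). Snapin, between them, did not pass (log2 difference 0.22, SE 0.26, adjusted p = 0.522). The smaller run, S100a11 and S100a10 within 38.1 kb, held no other named gene.

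**Figure D5:**
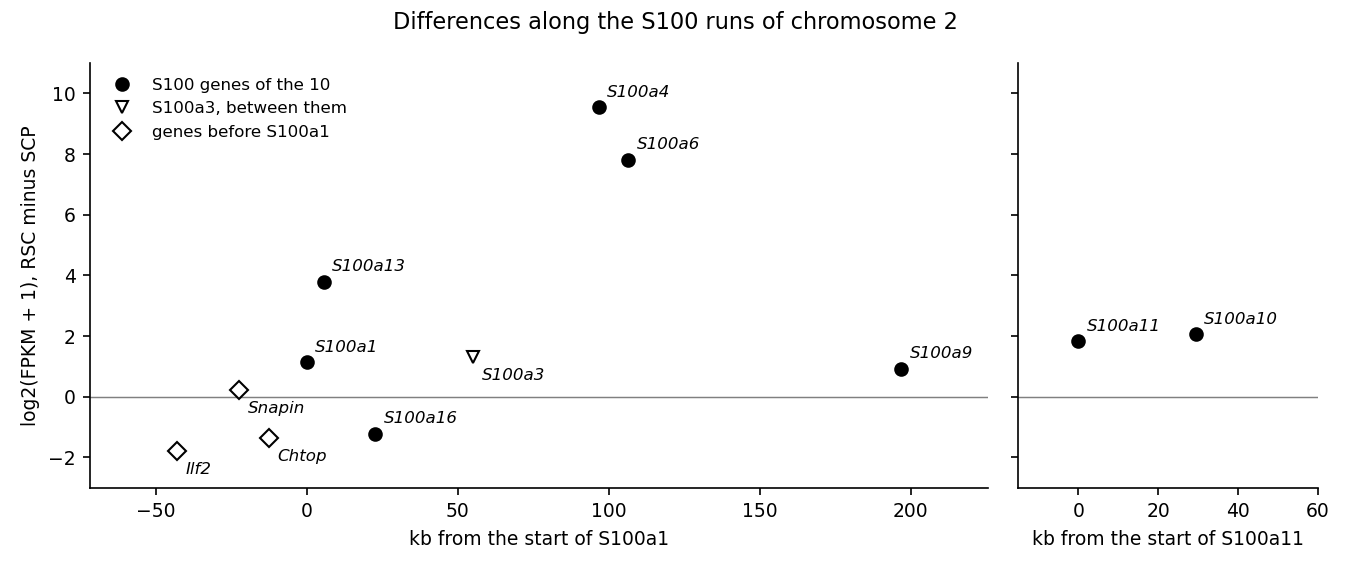
Difference in log2(FPKM + 1), RSC minus SCP (y axis), against the distance of each gene start in kb (x axis) from the start of S100a1 (left) or S100a11 (right), with filled points for members, a triangle for S100a3 and diamonds for Chtop, Snapin and Ilf2. S100a4 and S100a6 stand far above their neighbours, S100a16, Chtop and Ilf2 lie below 0, the S100a13 value includes zeros in 2 SCP samples, and S100a8, listed at 0 in all SCPs, is not drawn.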

How the data were processed

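RNA from 3 SCP and 3 RSC samples had been sequenced as paired-end mRNA libraries. Per the labels, reads were checked with FastQC 0.11.2, mapped to rn6 with TopHat2 2.1.0 and assembled with Cufflinks 2.2.1. For each sample the authors deposited transcript FPKM with Cufflinks' interval. The deposited tables also give coverage, a signal from which relative depth was read. Positions were converted to count from 1.

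FPKM of named transcripts were summed by symbol. The test, two-sided and on log2(FPKM + 1), was that of limma (version 3.58.1, R 4.3.3) with its variance trend, without a replicate block, over the 13003 genes that averaged 1 FPKM or more. Calls used an unadjusted p under 0.01, the study's threshold, and adjusted p-values are Benjamini-Hochberg over all tested genes. The scripts were tested on simulated data. Transcripts with date-like names (77 per table) were dropped. Estimated fragments are FPKM times length minus 200 bases, divided by the step of low values. Of low values of transcripts over 1000 bases, 81.9% to 84.9% were whole within 0.05, and 42.4% to 69.1% for 400 to 600 bases. Intervals and floors cover counting error only. Tables were handled with pandas 2.3.3.

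The members and all lists were chosen with earlier results of these data known. Besides the 10 members, the text names the 3 largest and 3 smallest called differences of each list, main partners and receptors, defining markers, and the 5 genes nearest to S100b and S100a4. Some genes of these lists are counted but not reported here by name. Alternatives were another pseudocount, filter, scaling, transcript summary, threshold or variance model, a replicate block, each sample left out and, added after seeing the data, zeros left out.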

Additional observations from a re-analysis of the deposited data

Results flagged for a closer look

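An unnamed transcript that Cufflinks assembled over S100a10 held 85.2 FPKM in RSC replicate 2 and 204.6 FPKM in RSC replicate 3, and no unnamed transcript lay over this gene in RSC replicate 1 or in the SCPs. These values stand outside the named transcripts used for the comparisons. With them added, S100a10 was at 669, 701 and 855 FPKM in RSC replicates 1, 2 and 3, the RSC SD rose from 26.6 to 99.7 FPKM, and the log2 difference was 2.25 in place of 2.06.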

How the results depend on the processing

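For the 10 S100 genes, 112 of 119 log2 differences under the alternatives moved by less than 1 SD, 7 moved by more and none changed sign. The largest move was that of S100a13, from 3.79 to 0.78 without the zeros. Of 192 counts of calls under the alternatives, 165 stayed within 1.5 times. The count of all genes higher in SCPs was 2917 and became 4789 with unnamed transcripts added. For the other S100 family genes and for the genes between members, the count higher in RSCs was 0 and became 1 (S100a3) with median-of-ratios scaling, a replicate block, the highest transcript, unnamed transcripts added, no variance trend or zeros left out, and was 0 to 1 with a sample left out (1 without SCP replicate 2). Without a filter 1 other family gene, Tchh, was higher in SCPs. For the listed genes of RAGE and TLR4 signalling, the count higher in SCPs was 2. It became 1 with either scaling, a replicate block, adjusted p, the highest transcript or no variance trend. With a sample left out it was 1 to 2, and Chuk was the gene lost under those settings. The causes were not tested. The replicate numbers did not pair the samples, since deviations of same-numbered samples correlated at 0.04, -0.005 and 0.03. With the replicate number as a block, 2022 genes were called higher in RSCs and 2253 higher in SCPs, against 2351 and 2917, and the calls of Sox10, Mapk14 and Mmp9 were lost (adjusted p = 0.0380, 0.0344 and 0.0386). Depth limits S100a8, S100a9 and the SCP level of S100a4 most.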
